A study of Rattus norvegicus with 9 samples.

Results

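The 150 transcripts described here were read as near absent in at least 1 of 9 rat testis libraries, but never in all 3 libraries of a group. They were selected on the deposited abundances alone, out of 19532 transcripts measured in 9 libraries. A transcript was taken where its lowest library was below 0.05 on the deposited scale, called off from here on, unless all 3 libraries of some group were below 0.05. Of the 1095 transcripts with at least 1 library off, 160 were off in a whole group and were left out, and 935 met the condition. The 150 with the highest maximum among these 935 are the on-and-off transcripts. Because these values chose them, their levels and the number of libraries that were off are a description and carry no test.

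The libraries came from the left testis of male Sprague Dawley rats, labelled as 6 to 7 weeks of age, with 3 libraries per group. The first group (VC+MOP) had an experimental varicocele, a widening of the veins draining the testis made by partial ligation of the left renal vein, and was given Morinda officinalis polysaccharide, extracted with water from a medicinal root, at 300 mg per kg daily. The second (VC) had the same ligation and received about 2 mL of saline daily. In both, gavage began 8 weeks after surgery and lasted 4 weeks, and rats without venous dilation or with an atrophied left kidney were dropped, so these groups hold rats in which the dilation had formed. The control group was operated on without ligation and kept for 12 weeks, with no gavage listed. These times after surgery exceed 6 to 7 weeks, so the labelled age cannot be that at which the tissue was taken. The labels do not say that each library is a separate rat, so the p-values below measure the spread between libraries.

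A gene usually yields several transcripts, which differ in their start, splicing or end, and the testis is known among organs for the variety of transcripts its germ cells make. In short-read sequencing, reads from exons that several transcripts share have to be divided between them by an estimate, whereas reads from an exon or junction of 1 transcript belong to it alone. In bulk tissue, fewer cells of a type and less RNA per cell cannot be told apart. The identifiers of the table are rat Ensembl transcripts, and 0 of the 150 could be paired with a gene in the RefSeq table used here. Transcripts are therefore given by identifier, with no gene, position or sequence, and the tissue label could not be checked against testis markers.

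The abundances of a library summed to between 478800 and 486011, and the on-and-off transcripts held between 0.157% of that sum in control 1 and 0.239% in VC 2. The header names no unit and read depth is unknown, so a library listed at 0 cannot be given a detection limit. The highest value of the 150 had a median of 8.68 and ran from 213 down to 4.66. The mean over all 9 libraries had a median of 3.77, and 51 of the 150 had a mean of at least 5, a level that 10107 of all 19532 transcripts reached. The last transcript inside the choice, ENSRNOT00000081155, had a maximum of 4.66, and the first outside it, ENSRNOT00000071469, had a maximum of 4.65.

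**Figure D1:**
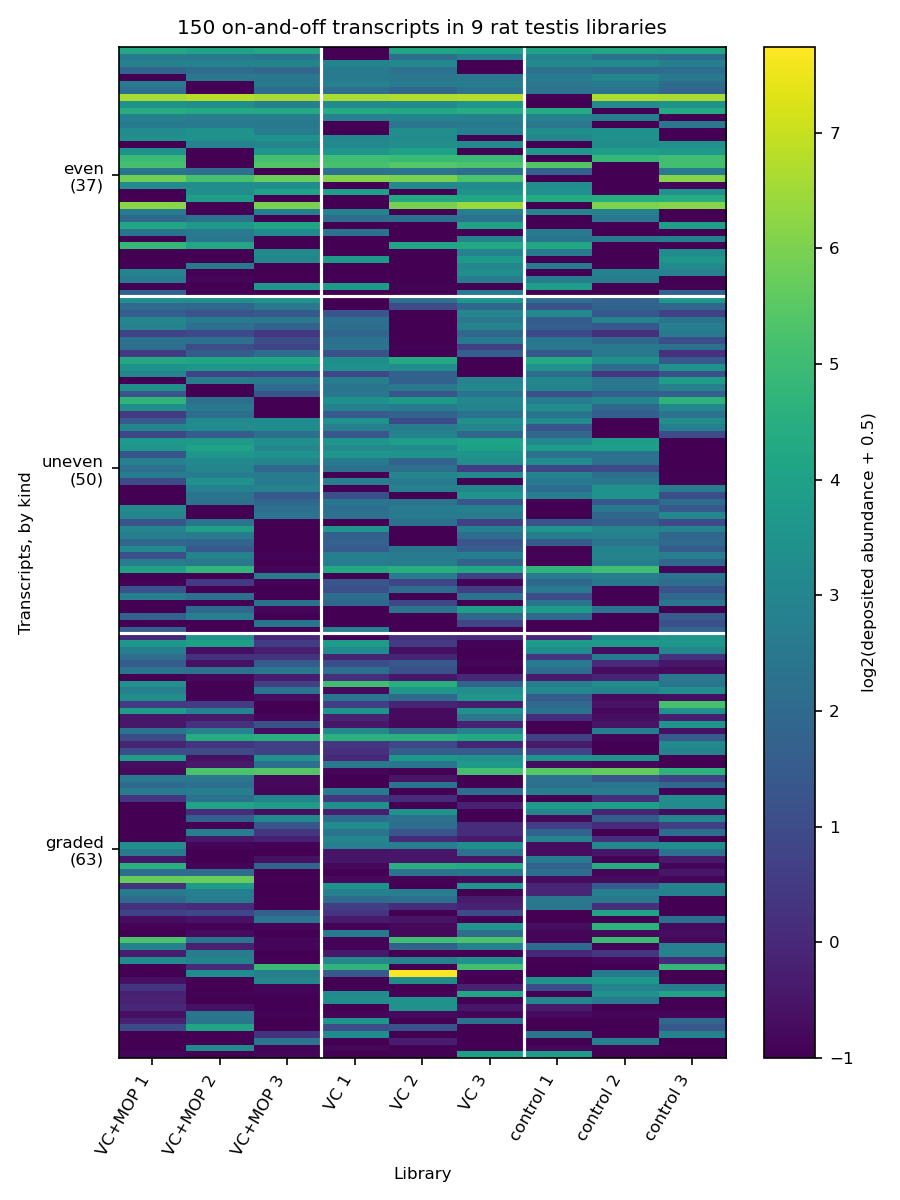
Abundance of the 150 on-and-off transcripts (rows) in the 9 libraries (columns), as log2 of the deposited abundance plus 0.5, with darkest cells near 0. Rows fall into 37 even transcripts (every library that is on within 2-fold of the maximum), 63 graded ones (a value of at least 0.05 but under 10% of the maximum) and 50 between; the dark cells are spread over all 9 libraries.

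The name on-and-off fits some of these transcripts better than others. In 37 of 150 (24.7%) every library that was not off lay within 2-fold of the maximum, so the values fell into 2 separate levels. In 63 (42%) at least 1 library held a value of 0.05 or more that was still under 10% of the maximum, and these are called graded. The other 50 had no such value but varied by more than 2-fold where they were on. Graded does not always mean middle levels, since values just above the limit count. ENSRNOT00000084155 is among the 63 through values from 0.0509 to 0.111, beside 51.6 and 53.2. ENSRNOT00000091355 is another, with 8.37 in 1 library and at most 0.0632 elsewhere. Of the 1350 values of the 150 transcripts, 341 were below 0.05 and 231 of these were listed at 0. Close to the limit lay few values: 42 between 0.025 and 0.05, and 29 between 0.05 and 0.1. In 92 transcripts every off library was listed at 0, and in 41 no library was.

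The transcript with the highest maximum, ENSRNOT00000077374, was high in 1 library. Its abundance was 0.00328, 9.09 and 6.16 in the VC+MOP libraries, 2.23, 213 and 0.0297 in the VC libraries, and 0.00436, 5.71 and 0.00426 in the controls. VC 2 alone stood above 10, and each group held an off library.

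ENSRNOT00000083935 showed the reverse, with 1 library off. It stood at 96.0, 110 and 95.9 in VC+MOP, at 99.3, 107 and 112 in VC, and at 0.0278, 100.1 and 99.5 in control. Over the 8 libraries that were on, its mean was 102.4 ± 6.14 (SD, n = 8), a coefficient of variation of 6.00%, while control 1 was off.

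ENSRNOT00000006727 was listed at 0 in 1 library of every group. It had 71.9, 0 and 60.9 in VC+MOP, 0, 61.5 and 85.7 in VC, and 0, 63.6 and 69.8 in control, so the ranges of the 3 groups overlapped. ENSRNOT00000087876 was off in control alone: it had 56.9, 36.0 and 53.2 in VC+MOP, 66.5, 63.2 and 38.0 in VC, and 0, 0 and 70.2 in control. Its highest value of all was the third control library.

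ENSRNOT00000084155 was high in 2 treated libraries. It had 51.6, 53.2 and 0.0227 in VC+MOP, against 0.0800, 0.0281 and 0.0783 in VC and 0.109, 0.111 and 0.0509 in control, so VC+MOP 3 read like the libraries of the other groups. ENSRNOT00000085613 had 0.0797, 38.0 and 42.2 in VC+MOP, 0.0383, 0.0195 and 34.4 in VC, and 43.9, 50.5 and 24.7 in control, where no library was off.

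**Figure D2:**
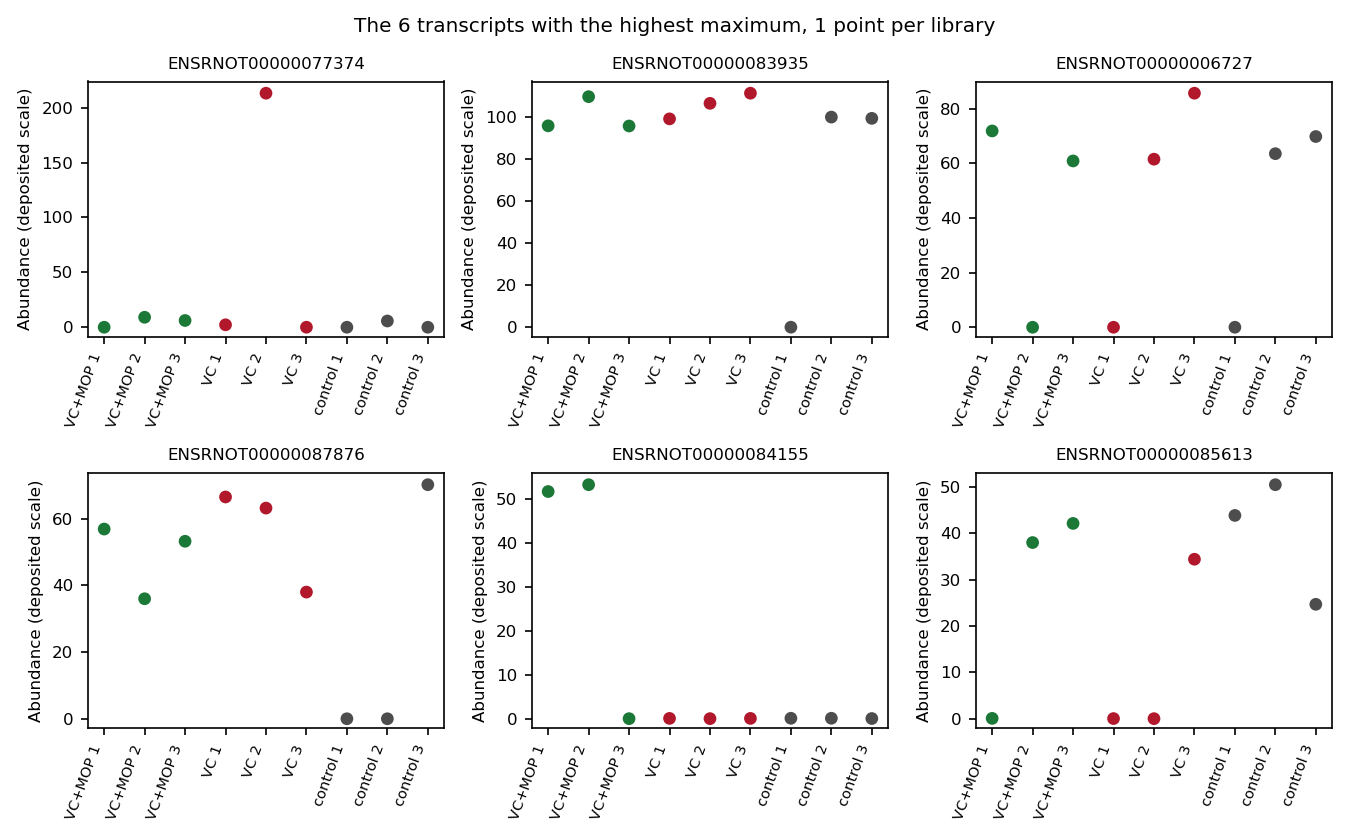
Deposited abundance (vertical axis, linear) of the 6 on-and-off transcripts with the highest maximum, 1 point per library, with VC+MOP in green, VC in red and control in grey. ENSRNOT00000077374 is high in VC 2 alone at 213, ENSRNOT00000083935 is off in control 1 alone, and none of the other 4 separates all 3 libraries of a group from the rest.

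Further transcripts were off in a single library and present in the other 8. ENSRNOT00000083841 was off in VC 1 at 0.00926, and its other 8 libraries lay at 17.4 ± 1.06 (SD, n = 8). ENSRNOT00000055688, chosen for display after its values were seen, was listed at 0 in control 2 and stood at 20.3 ± 0.784 (SD, n = 8) elsewhere. Their coefficients of variation where present were 6.06% and 3.87%, under the median of 8.22% among transcripts that were never off and had a maximum of at least 4.66.

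Others with 1 off library were less even. ENSRNOT00000081223 was off in VC 3 and had 18.9, 17.6 and 17.6 in VC+MOP, 9.69, 19.6 and 0 in VC, and 19.6, 9.96 and 2.30 in control. ENSRNOT00000035125, off in VC+MOP 2, had 10.3, 0.0165 and 1.06 in VC+MOP, 33.8, 22.7 and 3.04 in VC, and 6.32, 9.52 and 4.76 in control. ENSRNOT00000012026 was off in VC+MOP 3 at 0.00408, yet it was high at 36.1 in control 3 alone, and the next highest library, control 1, had 3.53. In these 3 transcripts the off library lay at the lower end of a wide spread.

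The other libraries each had such a case too. ENSRNOT00000091048 was listed at 0 in VC+MOP 1 and ran from 2.76 in VC 2 to 14.1 in control 3. ENSRNOT00000092574 was listed at 0 in VC 2 and reached 8.12 in control 1, and ENSRNOT00000081450 was listed at 0 in control 3 and reached 16.4 in VC 3. ENSRNOT00000020160 was off in control 2 at 0.0406 and is described with the group comparisons.

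The 37 even transcripts were off in 1 library in 11 cases, in 2 libraries in 9 and in 3 or more in 17. The even transcripts given next were picked for display by hand after their values were seen, and stand for no others. ENSRNOT00000005016 was listed at 0 in VC+MOP 2 and control 2 and had 38.5 ± 3.55 (SD, n = 7) in the other libraries. ENSRNOT00000047466 was listed at 0 in VC+MOP 2 and control 1 and had 31.0 ± 2.17 (SD, n = 7) in the others. In both, 1 off library was a treated one and the other a control.

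ENSRNOT00000003558 had 27.5, 18.0 and 0 in VC+MOP, 0, 17.7 and 19.1 in VC, and 17.9, 0 and 0 in control. ENSRNOT00000016424 had 0, 14.3 and 0.0071 in VC+MOP, 0, 19.3 and 17.7 in VC, and 20.4, 20.9 and 20.7 in control, so its control libraries were all on. ENSRNOT00000071783 had 17.1, 12.7 and 17.4 in VC+MOP, 0, 0 and 15.9 in VC, and 0, 0 and 14.9 in control, so its treated libraries were all on. Each of these 3 transcripts had at least 1 library that was on in every group. In ENSRNOT00000016424 the libraries that were on did not overlap between groups, and were lowest in VC+MOP and highest in control.

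Even transcripts were also found at lower levels. ENSRNOT00000071028 had 8.70, 9.30 and 9.05 in VC+MOP, 0, 8.63 and 8.94 in VC, and 9.34, 0 and 0.0384 in control, which gave a coefficient of variation of 3.30% over the 6 libraries that were on. ENSRNOT00000072266 was on in 1 library of each group, at 11.3 in VC+MOP 3, 13.0 in VC 1 and 14.3 in control 1, and stood between 0.00505 and 0.0237 in the other 6. It was thus off in as many libraries as the rule allows.

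Where they were on, the 150 transcripts varied more than transcripts that were never off. The median coefficient of variation among the libraries that were on was 48.1% for the 150 (quartiles 25.8% and 81.8%) and 14.1% for the 37 even ones. It was 8.22% (quartiles 5.65% and 13.0%) for the 11362 transcripts with no library off and a maximum of at least 4.66. Taken from the median absolute deviation over the median, which gives less weight to single libraries, the value was 26.4% for the 150 and 7.36% for the never-off transcripts, the last computed after the other values were seen. The even ones were chosen for evenness, so their lower value follows from that choice. The never-off transcripts shared only the lowest maximum of 4.66 with the 150 and were not matched to them in level. The 150 were also chosen for having an off library. How far the wider spread of the 150 follows from their level or from that rule was not tested.

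Most transcripts were off in few libraries: 57 were off in 1 library, 45 in 2, 18 in 3, 17 in 4, 6 in 5 and 7 in 6. The rule allows at most 6, since each group must keep 1 library that is on. A high value, meaning at least 50% of the maximum, was found in 1 library alone for 22 transcripts. Of these, control 3 was the high library in 5, VC+MOP 2, VC 1 and control 1 in 3 each, VC 2, VC 3 and control 2 in 2 each, and VC+MOP 1 and VC+MOP 3 in 1 each. ENSRNOT00000091355 was one, chosen for display after its values were seen, with 8.37 in VC+MOP 2 and at most 0.0632 in the other 8 libraries.

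Every library took part. The number of the 150 that were off was 32, 38 and 51 in VC+MOP, 38, 41 and 33 in VC, and 33, 40 and 35 in control. VC+MOP 3 had the highest number, 34% of the 150, and VC+MOP 1 the lowest, 21.3%. Over all 19532 transcripts VC+MOP 3 did not stand out in this direction: 336, 325 and 311 transcripts were off in VC+MOP, 315, 310 and 300 in VC, and 312, 338 and 337 in control. Among the 785 transcripts that met the condition at lower maxima, VC+MOP 3 had the fewest off, 150, against 166 to 192 in the other libraries. The number off in a single library and nowhere else was 3, 7 and 6 in VC+MOP, 5, 7 and 10 in VC, and 4, 7 and 8 in control, so VC 3 was the most frequent lone off library.

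**Figure D3:**
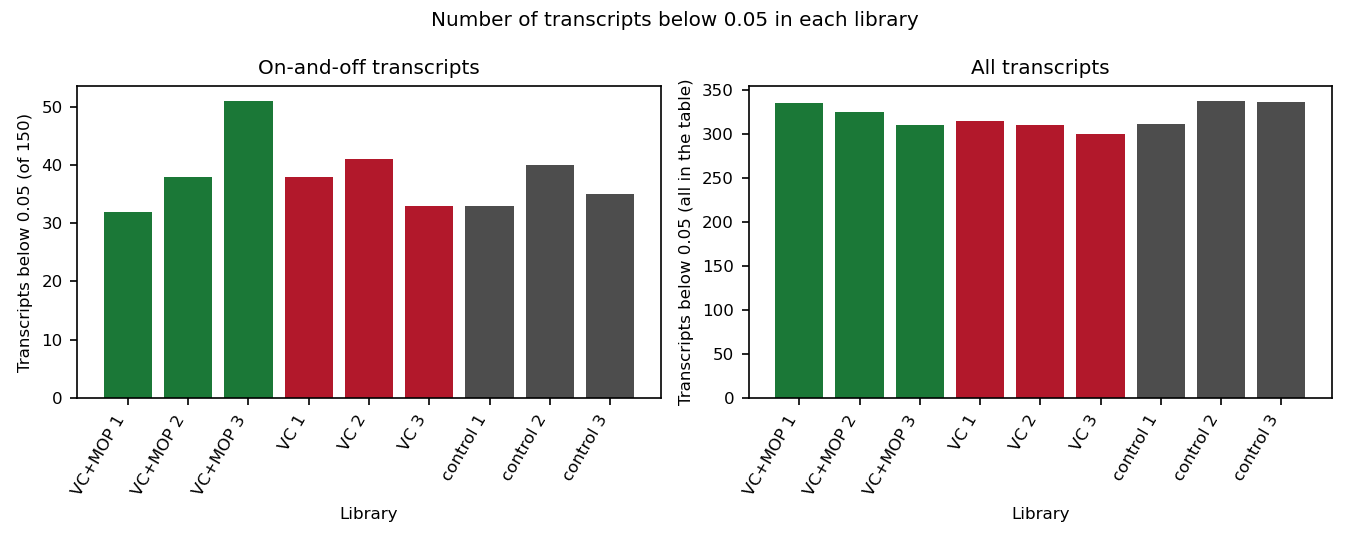
Number of transcripts below 0.05 in each library (bars from 0), for the 150 on-and-off transcripts on the left and for all 19532 on the right. VC+MOP 3 has 51 of the 150 off, above the 32 to 41 of the other libraries, while its 311 over all transcripts is among the lower counts.

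Summed over libraries, VC+MOP held 121 off values, VC 112 and control 108. This order was not stable: with the limit for off at 0.01 the numbers were 111, 118 and 102, and among the 100 transcripts with the highest maximum they were 76, 73 and 76, in VC+MOP, VC and control. In VC+MOP 65 transcripts had 1 library off and 28 had 2, in VC 68 and 22, and in control 62 and 23. For 64 of the 150 the off libraries lay in 1 group, for 54 in 2 groups and for 32 in all 3. Those with off libraries in 1 group were 19 in VC+MOP, 25 in VC and 20 in control, and they included 3, 3 and 1 transcripts in which 2 libraries of that group were off. The last were ENSRNOT00000081433, ENSRNOT00000044226 and ENSRNOT00000018058 in VC+MOP, ENSRNOT00000085613, ENSRNOT00000090240 and ENSRNOT00000032634 in VC, and ENSRNOT00000087876 in control. The highest of the 3 group means was that of VC+MOP in 41 transcripts, of VC in 51 and of control in 58.

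Libraries could also be compared by which of the 150 were off in them. Among the 9 pairs of libraries within a group, between 50 and 69 of the 150 transcripts were on in one and off in the other, with a median of 60. Among the 27 pairs between groups the range was 47 to 70 and the median 54. The rule bears on this count, because it left out transcripts that were off in all libraries of a group, and no test is given. The sets of off libraries were varied: the 150 transcripts showed 80 different sets, and 56 of these were held by 1 transcript. Of the 93 transcripts off in 2 or more libraries, 37 shared their set with at least 1 other. The most frequent set of this kind was VC+MOP 3 with VC 2, held by 5 transcripts.

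For some of the 150 another transcript was found that was high where the on-and-off transcript was low. For each of the 150, all other transcripts of the table were searched for the one whose sum with it varied least over the 9 libraries. A mirror transcript was one that brought the standard deviation of the sum to at most 25% of that of the on-and-off transcript alone. This search, its limit and the pairs shown were chosen after the values were seen. Because 19531 candidates were searched with 9 points each, the correlations are descriptions with no p. A steady sum is what the search selected for, so the sums given below are descriptions too.

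A mirror was found for 25 of the 150 (16.7%), in 24 distinct pairs. The same search for a transcript that ran parallel, so that the difference varied as little, found 13 (8.67%). Among the 785 transcripts that met the on-and-off condition at lower maxima, mirrors were found for 31 (3.95%) and parallels for 49 (6.24%). Among the 11362 never-off transcripts with a maximum of at least 4.66, mirrors were found for 230 (2.02%) and parallels for 326 (2.87%). These sets were not matched in level, and the difference between their shares was not tested. Over the 25 transcripts with a mirror, 2 of which mirror each other, the median coefficient of variation was 76.7% for the on-and-off transcript, 63.4% for its mirror and 5.52% for their sum. The low value for the sum follows from how mirrors were chosen. Of the 25, 15 were among the 50 with the highest maximum.

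ENSRNOT00000077374, high in VC 2 alone, had ENSRNOT00000084494 as its mirror. The mirror stood at 215, 217 and 215 in VC+MOP, at 213, 0.475 and 225 in VC, and at 214, 202 and 211 in control (Pearson r = -0.996 over 9 libraries). That r rests mainly on VC 2. The sum of both transcripts was 217 ± 6.08 (SD, n = 9), with VC 2 at 214 inside the range of the others. The library that set the on-and-off transcript apart was not apart in the sum, for whose steadiness the mirror was chosen.

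ENSRNOT00000083935, off in control 1, had ENSRNOT00000064261 as its mirror, which was listed at 92.4 in control 1 and at 0 in each of the other 8 libraries. Their sum was 101 ± 6.62 (SD, n = 9). ENSRNOT00000006727, listed at 0 in 1 library of each group, had ENSRNOT00000081878. This mirror had 0.469, 67.4 and 0.449 in VC+MOP, 75.1, 0.560 and 0.523 in VC, and 77.1, 0.362 and 0.969 in control, so it was high in the 3 libraries in which the other was listed at 0. The sum of this pair was 70.7 ± 8.08 (SD, n = 9) and ran from 61.3 to 86.2.

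ENSRNOT00000082607 and ENSRNOT00000064140 divided the libraries more evenly. The on-and-off transcript had 23.1, 0.0488 and 3.08 in VC+MOP, 0.0690, 22.5 and 20.4 in VC, and 2.84, 20.9 and 0.0447 in control. Its mirror had 0.159, 20.1 and 18.5 in VC+MOP, 21.4, 0.0718 and 0.0795 in VC, and 19.4, 0.119 and 19.6 in control. The sum was 21.4 ± 1.18 (SD, n = 9), and both transcripts were high in at least 1 library of every group.

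One pair lay wholly within the 150. ENSRNOT00000081223, given above, was mirrored by ENSRNOT00000088048, which had 0.371, 0.0141 and 0.0248 in VC+MOP, 8.92, 0.0310 and 18.4 in VC, and 0.0142, 10.1 and 16.7 in control. Their sum was 18.9 ± 0.866 (SD, n = 9). In VC 1 and in control 2 the 2 transcripts stood at nearly equal levels, so the states were not just on and off. ENSRNOT00000035606 and its mirror ENSRNOT00000084884 gave a sum of 6.86 ± 0.346 (SD, n = 9) at a lower level.

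Mirrors of further transcripts followed the same course. ENSRNOT00000005016, listed at 0 in VC+MOP 2 and control 2, was mirrored by ENSRNOT00000081813, which had 42.8 and 44.1 in these 2 libraries and between 3.06 and 8.70 in the other 7. ENSRNOT00000080950 was below 0.05 in VC+MOP 2, VC 2 and control 3, and its mirror ENSRNOT00000037902 had 7.23, 7.44 and 7.02 there and at most 0.435 elsewhere. ENSRNOT00000064984, listed at 0 in control 3, was mirrored by ENSRNOT00000061507, at 7.72 in control 3 and between 1.10 and 1.57 elsewhere. In these 3 pairs the sum in the off libraries lay within its range in the other libraries.

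Graded transcripts had mirrors too. ENSRNOT00000035125, whose 9 values spread from 0.0165 to 33.8, was mirrored by ENSRNOT00000080065, which had 23.0, 38.0 and 37.5 in VC+MOP, 0.536, 14.6 and 32.5 in VC, and 31.8, 23.0 and 30.6 in control, and the sum was 35.9 ± 2.22 (SD, n = 9). ENSRNOT00000067017, highest at 9.25 in control 3, was mirrored by ENSRNOT00000087305, lowest at 4.73 in the same library, with a sum of 13.0 ± 0.689 (SD, n = 9).

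Not every mirror was itself near 0. ENSRNOT00000084155, high in VC+MOP 1 and 2, was mirrored by ENSRNOT00000005863, which had 77.5, 79.9 and 127 in VC+MOP, 129, 136 and 134 in VC, and 124, 126 and 138 in control. ENSRNOT00000055688, off in control 2, was mirrored by ENSRNOT00000068251, at 36.0 in control 2 and between 13.7 and 17.8 elsewhere. Of the 25 mirrors, 4 were off in at least 1 library. Whether the transcripts of a pair belong to the same gene was not tested, since no identifier could be paired with one.

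**Figure D4:**
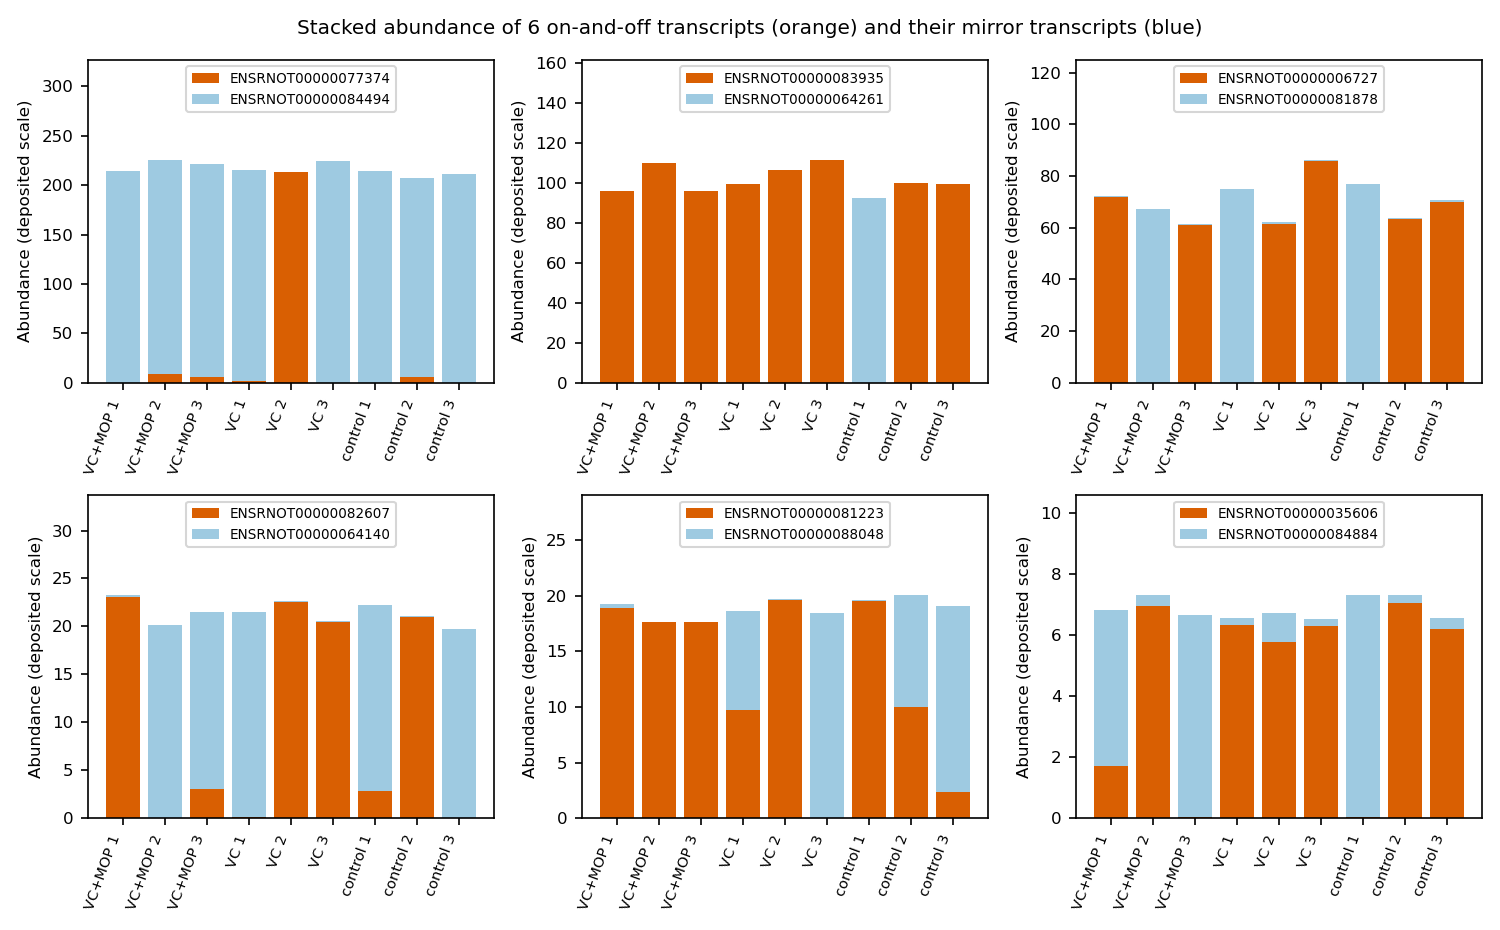
Stacked abundance (linear, from 0) of 6 on-and-off transcripts in orange and of their mirror transcripts in blue, in each library. The height of the stack is the sum of both, for whose steadiness each mirror was chosen. It is 217 ± 6.08 for the first pair, although VC 2 is nearly all orange and the other 8 libraries nearly all blue. For ENSRNOT00000006727 and its mirror it runs from 61.3 to 86.2, a coefficient of variation of 11.4%.

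The transcripts most like the first 3 were also sought by the correlation of log2(abundance + 0.5) over the 9 libraries. ENSRNOT00000083935 was followed most closely by ENSRNOT00000087567 (Pearson r = 0.996), which stood at 0.515 in control 1 and between 12.8 and 14.9 in the other 8 libraries. Both of these transcripts were thus low in control 1. ENSRNOT00000077374 was followed by ENSRNOT00000090368 (r = 0.951), with 2.81 in VC 2 and at most 0.649 elsewhere. ENSRNOT00000006727 was followed by ENSRNOT00000068686 (r = 0.952), which was listed at 0 in VC+MOP 2 and control 1 and at 0.267 in VC 1. The lowest correlation for ENSRNOT00000083935 was that with ENSRNOT00000048875 (r = -0.9995), listed at 1.82 in control 1 and at 0 in the other 8 libraries. That r therefore rests on 1 library, and the r of 0.996 with ENSRNOT00000087567 rests mainly on the same library. The lowest for ENSRNOT00000077374 was with ENSRNOT00000046503 (r = -0.942), and for ENSRNOT00000006727 with ENSRNOT00000081878, described above (r = -0.996).

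The identifiers of the on-and-off transcripts carried higher numbers than those of the table. Ensembl gives out such numbers in sequence, so a higher one was as a rule issued later. Of the 150, 118 (78.7%) lay in the upper 50% of the table's identifiers and 69 (46%) in the upper 25%. The shares were 76.9% and 42.7% for the 785 on-and-off transcripts of lower maximum, and 71.9% and 40.6% for the 160 that were off in a whole group. Among the 11362 never-off transcripts with a maximum of at least 4.66 they were 44.0% and 20.1%. These sets were not matched in level, and the difference was not tested.

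Group differences were read from 1 limma fit to all transcripts at 0.5 or more in at least 3 libraries, with Benjamini-Hochberg adjustment over the 19185 that remained. Of the 150, 138 were tested and 12 fell under this filter. The rule leaves out transcripts that are off in a whole group and takes those that vary within groups, so the counts below describe the 150 and carry no weight of their own. Errors of fold changes below are standard errors of that fit. The median standard error of a log2 fold change was 1.17 for the 138 and 0.127 for all transcripts tested.

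Varicocele with saline was set against sham control, a comparison in which ligation and gavage cannot be told apart. It gave 0 of 138 transcripts past an adjusted p of 0.05 (limma), where 0.0156% of all transcripts passed. At an unadjusted p below 0.05 stood 11, or 7.97%, against 4.61% of all. The VC and control libraries did not overlap in 12 of the 138, or 8.70%, against 9.71% of all. The median log2 fold change was -0.03 for the 138 and 0.00 for all, and single values ran from -4.17 to 4.39.

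Of the transcripts that were higher in VC, ENSRNOT00000076516 had the smallest p. Its values were 5.21, 4.73 and 13.0 in VC and 0.113, 0.0658 and 0 in control, with 0.124, 0.263 and 4.16 in VC+MOP, so VC lay above both other groups. The log2 fold change was 3.73 ± 0.72 (SE) and did not pass (limma adjusted p = 0.487, and between 0.0405 and 0.946 under the alternatives). ENSRNOT00000020160 had 23.3, 23.1 and 19.5 in VC, against 1.12, 0.0406 and 2.41 in control (a log2 fold change of 4.04 ± 0.95, limma adjusted p = 0.82, and 0.174 to 1.00 under the alternatives). In VC+MOP it had 1.48, 20.6 and 23.0, so 1 treated library read like the controls.

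Of those lower in VC, ENSRNOT00000082304 had 0, 0 and 0.400 in VC, against 1.51, 7.17 and 5.98 in control, and 0.734, 0 and 0.0425 in VC+MOP. The log2 fold change between VC and control was -2.93 ± 0.56 (SE, limma adjusted p = 0.487, and 0.161 to 0.994 under the alternatives). ENSRNOT00000059548 had 2.05, 1.29 and 0.0243 in VC, against 3.29, 5.22 and 3.81 in control (a log2 fold change of -1.76 ± 0.60, limma adjusted p = 0.996, and 0.883 to 1.00 under the alternatives). Both had their 3 control libraries above every VC and VC+MOP library.

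**Figure D5:**
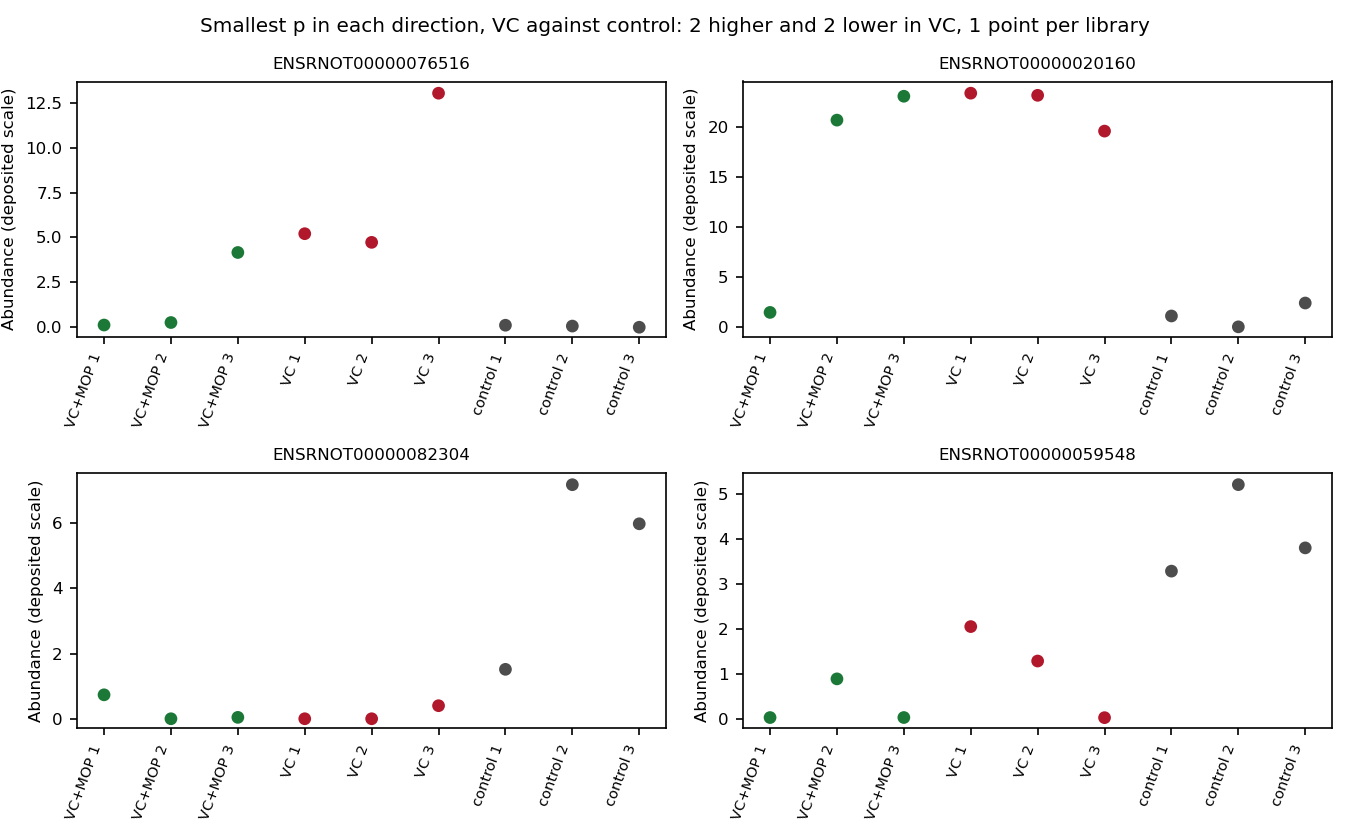
Deposited abundance (vertical axis, linear) in each library of 4 on-and-off transcripts, the 2 higher and the 2 lower in VC with the smallest p against control, with VC+MOP in green, VC in red and control in grey. VC lies above control in ENSRNOT00000076516 and ENSRNOT00000020160 and below it in ENSRNOT00000082304 and ENSRNOT00000059548, and in ENSRNOT00000020160 VC+MOP 1 lies apart from the other treated libraries.

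Polysaccharide against saline in rats with a varicocele gave 0 of 138 past an adjusted p of 0.05 (limma), where 0.0208% of all passed. At an unadjusted p below 0.05 stood 7, or 5.07%, against 6.28% of all, and the groups did not overlap in 10, or 7.25%, against 11.6% of all. The median log2 fold change was -0.11 for the 138 and -0.01 for all. ENSRNOT00000076516 had the smallest p of those lower in VC+MOP (log2 fold change -2.50 ± 0.72, SE, limma adjusted p = 0.781, and 0.0603 to 0.924 under the alternatives).

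The others with the smallest p in that comparison had an off library in one of the groups. ENSRNOT00000090240 had 5.74, 5.04 and 0.0727 in VC+MOP, against 0, 0.187 and 0 in VC (a log2 fold change of 2.28 ± 0.85, limma adjusted p = 0.788, and 0.0791 to 0.924 under the alternatives), and its groups overlapped. ENSRNOT00000072202 had 3.61, 3.35 and 5.11 in VC+MOP, against 0, 1.49 and 3.18 in VC, without overlap (a log2 fold change of 1.53 ± 0.62, limma adjusted p = 0.788, and 0.657 to 0.98 under the alternatives). ENSRNOT00000079675 had 1.96, 0.0117 and 1.89 in VC+MOP, against 5.27, 2.01 and 4.49 in VC, again without overlap (a log2 fold change of -1.53 ± 0.60, limma adjusted p = 0.788, and 0.691 to 0.98 under the alternatives).

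Polysaccharide-treated varicocele against control gave 0 of 138 past an adjusted p of 0.05 (limma), where 0.0417% of all passed. At an unadjusted p below 0.05 stood 9, or 6.52%, against 6.59% of all, and the groups did not overlap in 14, or 10.1%, against 13.3% of all. The median log2 fold change was -0.02 for the 138 and -0.01 for all. ENSRNOT00000082304 had the smallest p (log2 fold change -2.74 ± 0.56, SE, limma adjusted p = 0.435, and 0.171 to 0.891 under the alternatives). ENSRNOT00000059548 had 0.0267, 0.889 and 0.0274 in VC+MOP, below the 3 control values given above (a log2 fold change of -2.64 ± 0.60, limma adjusted p = 0.562, and 0.219 to 0.942 under the alternatives). ENSRNOT00000078760 had 4.25, 7.30 and 3.33 in VC+MOP, against 1.26, 1.52 and 0 in control (a log2 fold change of 2.11 ± 0.63, limma adjusted p = 0.731, and 0.463 to 0.942 under the alternatives). ENSRNOT00000020160 was also among those higher in VC+MOP, but its groups overlapped (log2 fold change 2.86 ± 0.95, SE, limma adjusted p = 0.731, and 0.172 to 0.942 under the alternatives).

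A few transcripts passed when a library was left out or a group was kept out of the fit. Calls over all transcripts tested moved under the same settings. In VC against control they went from 3 to 8 without control 3, 5 without VC+MOP 3 and 8 with these 2 groups alone. In VC+MOP against control they went from 8 to 11 without control 3 and 15 without VC+MOP 3. Without control 3, ENSRNOT00000087876 passed in VC and in VC+MOP against control (limma adjusted p = 0.000379 and 0.000143, against 0.996 and 0.731 with all libraries), with both remaining control libraries listed at 0. Its adjusted p reached 1.00 and 0.942 under the other alternatives. Control 3 was the only control library in which ENSRNOT00000087876 was on. Leaving it out set the whole control group off, a state that the rule leaves out, so these passes carry no weight. Without VC+MOP 3, ENSRNOT00000067776 passed in VC against control and in VC+MOP against control (limma adjusted p = 0.0156 and 0.011, against 0.966 and 0.731 with all libraries and up to 1.00 and 0.942 under the other alternatives), and ENSRNOT00000076516 passed in VC against control (limma adjusted p = 0.0405). ENSRNOT00000067776 also passed in VC against control with the 6 libraries of these groups fitted alone (limma adjusted p = 0.0347). ENSRNOT00000067776 had 8.97, 7.24 and 0.0166 in VC+MOP, 8.16, 6.97 and 10.1 in VC, and 0.0167, 0.0480 and 0.539 in control, so VC+MOP 3 was the 1 library of the ligated groups that read like control. VC+MOP 3 enters the comparison of VC with control only through the shared estimate of the spread.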

How the data were processed

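Libraries were made from fragmented total RNA with random priming and a second strand marked by dUTP, per the labels' protocols. The authors deposited 1 table of transcript abundance, a linear signal in which every column is 1 library; 0 further columns are present. Per the submitters' processing notes cutadapt, HISAT2 2.0.5 and StringTie 1.3.1c are named, with no roles given, and the build named is hg19, which is human, while the identifiers are those of rat. Their annotation is not named in these sources.

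The on-and-off transcripts and the lists were chosen with earlier results of these data known. For tests, values were taken as log2(value + 0.5), so fold changes of rare transcripts are understated, and limma 3.58.1 in R 4.3.3 fitted all 9 libraries with a variance trend and the group as the only term, after tests on simulated data. Tests were two-sided. Named were the first 6 transcripts by maximum, for each library the highest one off there alone, the 2 higher and 2 lower with the smallest p per comparison, those at the limit of the choice and the closest patterns. No transcript can be on in 1 library alone under the rule, so that part of the naming gave none. The marker lists, sums per gene and comparisons of named genes were not run, because 0 of 19532 identifiers could be paired with a gene. Figures were drawn with matplotlib 3.10.9.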

Additional observations from a re-analysis of the deposited data

How the results depend on the processing

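Counts of on-and-off transcripts past an adjusted p of 0.05 (limma) were 0 in each comparison, and also under pseudocounts of 0.1 and 1, no filter, a mean of at least 1, both scalings, no variance trend and an adjusted p below 0.10. They were 1 in VC against control with these 2 groups fitted alone, and 11, 7 and 9 at an unadjusted p below 0.05 in VC against control, VC+MOP against VC and VC+MOP against control. Leaving out 1 library gave 0 to 2, 0 and 0 to 1 in that order. Over all transcripts tested, 3, 4 and 8 passed with all libraries. Leaving out 1 library gave 2 to 10, 3 to 12 and 6 to 15 of them. With the replicate number as a block the counts were 0, 0 and 0. That number did not act as a pairing: deviations from the group means correlated between -0.0594 and 0.0478 for libraries with the same number, and 4 of 9 libraries were closest to their own.

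The 935 transcripts meeting the condition, the 57 off in 1 library, the 63 graded ones and the median spread of 48.1% kept to within 1.5 times, or within 1 SD for the spread, at limits of 0.01 and 0.1, and under median-of-ratios scaling for the first 3. Leaving out 1 library and choosing anew gave 834 to 858, 60 to 75 and 57 to 62 for the first 3. Taken from medians in place of means, the spread was 26.4%, a move of more than 1.5 times though within 1 SD. Counts grow with the number taken: for the 300 with the highest maximum 122 were off in 1 library and 110 were graded, and off values numbered 238 in VC+MOP, 218 in VC and 226 in control. For the first 100 they were 76 in VC+MOP, 73 in VC and 76 in control, and at a limit of 0.01 they were 111, 118 and 102 in that order, so which group had most changed. A limit of 0.01 kept 123 of the 150 and one of 0.1 kept 138. Mirrors, added after seeing the data, numbered 25 in the report, 1 and 6 at limits of 10% and 15% of the spread alone, and 135 at 50%, where 82% of the 150 also had a parallel. At 50% mirrors were found for 90% of the 150, 95.3% of the 785 on-and-off transcripts of lower maximum and 87.9% of the 11362 never-off ones. At 10% and 15% they were found for 0 and 0 of the 785, and for 3 and 13 of the 11362. Read depth is unknown, so what it limits could not be given.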
